A study of Homo sapiens with 9 samples.

Results

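The 60 genes described here encode proteins that carry cells from G2 through mitosis to cell division. They were chosen by symbol, from a list of cyclins, mitotic kinases, spindle, kinetochore and cytokinesis proteins and their regulators. Earlier results of these data were known when they were chosen. All 60 were measured, out of 13052 genes in each of the authors' deposited tables. The cells were MCF10A, a non-transformed line of human mammary epithelium grown with epidermal growth factor, insulin, hydrocortisone, cholera toxin and horse serum. The study compared cells with a control knockout, which express Cas9 and whose genotype is given as WT (Control-KO), with derivatives labelled APE1-knockout (APE1-KO) and XRCC1-knockout (XRCC1-KO). Each group had 3 poly(A) RNA libraries. Cas9 expression is stated for the control cells, from which the knockouts were derived. The labels do not say whether a knockout is 1 clone or a pool, nor whether the 3 libraries of a group are separate cultures, so the p-values speak of variation among those libraries, and part of it may be technical.

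Entry into mitosis is driven by cyclin-dependent kinase 1 bound to its cyclins, and exit by the anaphase-promoting complex (APC/C), a ubiquitin ligase that marks cyclins and securin for destruction. Transcripts of these genes are made late in the cell cycle under the activators B-MYB and FOXM1. In quiescent or arrested cells the same promoters are held down by the DREAM complex, which binds a short element called the cell cycle genes homology region (CHR), often near boxes bound by the factor NF-Y. Mitotic transcripts are therefore widely used as a readout of how many cells of a culture are dividing.

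The deposited values were comparisons between groups, so no value per library could be shown and the 95% intervals given were recovered from the authors' test statistics. APEX1, the gene for APE1, was at 0.354-fold of Control-KO by the authors' deposited table for APE1-KO (log2 interval -1.67 to -1.33, adjusted p = 7.17e-08; edgeR, per the submitters' processing notes). It was the 1 gene (0.00766% of all) past an adjusted p of 0.05 there. XRCC1 mRNA stood at 0.14 on the log2 scale in the authors' deposited table for XRCC1-KO (p = 0.235), and since an edited gene may still be transcribed this does not check that label. No gene passed that threshold (0.0%) in the deposited XRCC1-KO table, where by edgeR 353 genes were lower and 425 higher at an unadjusted p under 0.05. All 7 epithelial markers examined were measured, with mean log2 CPM, a library-scaled count, from 6.34 for EPCAM to 12.1 for KRT5, while the highest of the 5 fibroblast, leukocyte and endothelial markers measured, of 15 looked for, was COL1A1 at 4.08.

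Mitotic transcripts stood lower in XRCC1-KO than in Control-KO cells as a group, by small amounts, while no single one passed adjustment over all genes. Their median log2 fold change was -0.17 in the authors' deposited table for XRCC1-KO, or 0.891-fold, and 58 of them lay below 0. Over all 13052 genes the median was -0.00085, and 50.3% lay below 0. At an unadjusted p under 0.05, 16 of the 60 were lower and 0 higher, beside 2.7% of all genes lower and 3.26% higher. At the stricter 0.01, 4 were lower (KIF20A, DLGAP5, NEK2 and FOXM1), beside 0.398% of all genes. The adjusted p of every member was at least 0.76 in the authors' edgeR test. The 60 values come from the same libraries and are not independent of each other, and the set as a whole was not tested. In bulk RNA, fewer cells in mitosis and less transcript per mitotic cell cannot be told apart. In APE1-KO cells the same genes had a median of 0.0053, with 28 of 60 below 0, where 50.5% of all genes lay below 0. None had an unadjusted p under 0.05 in the deposited APE1-KO table, against 0.674% of all genes lower and 0.774% higher, and every adjusted p there was 1. The comparisons share their control libraries, so the values of both are set side by side below.

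**Figure D1:**
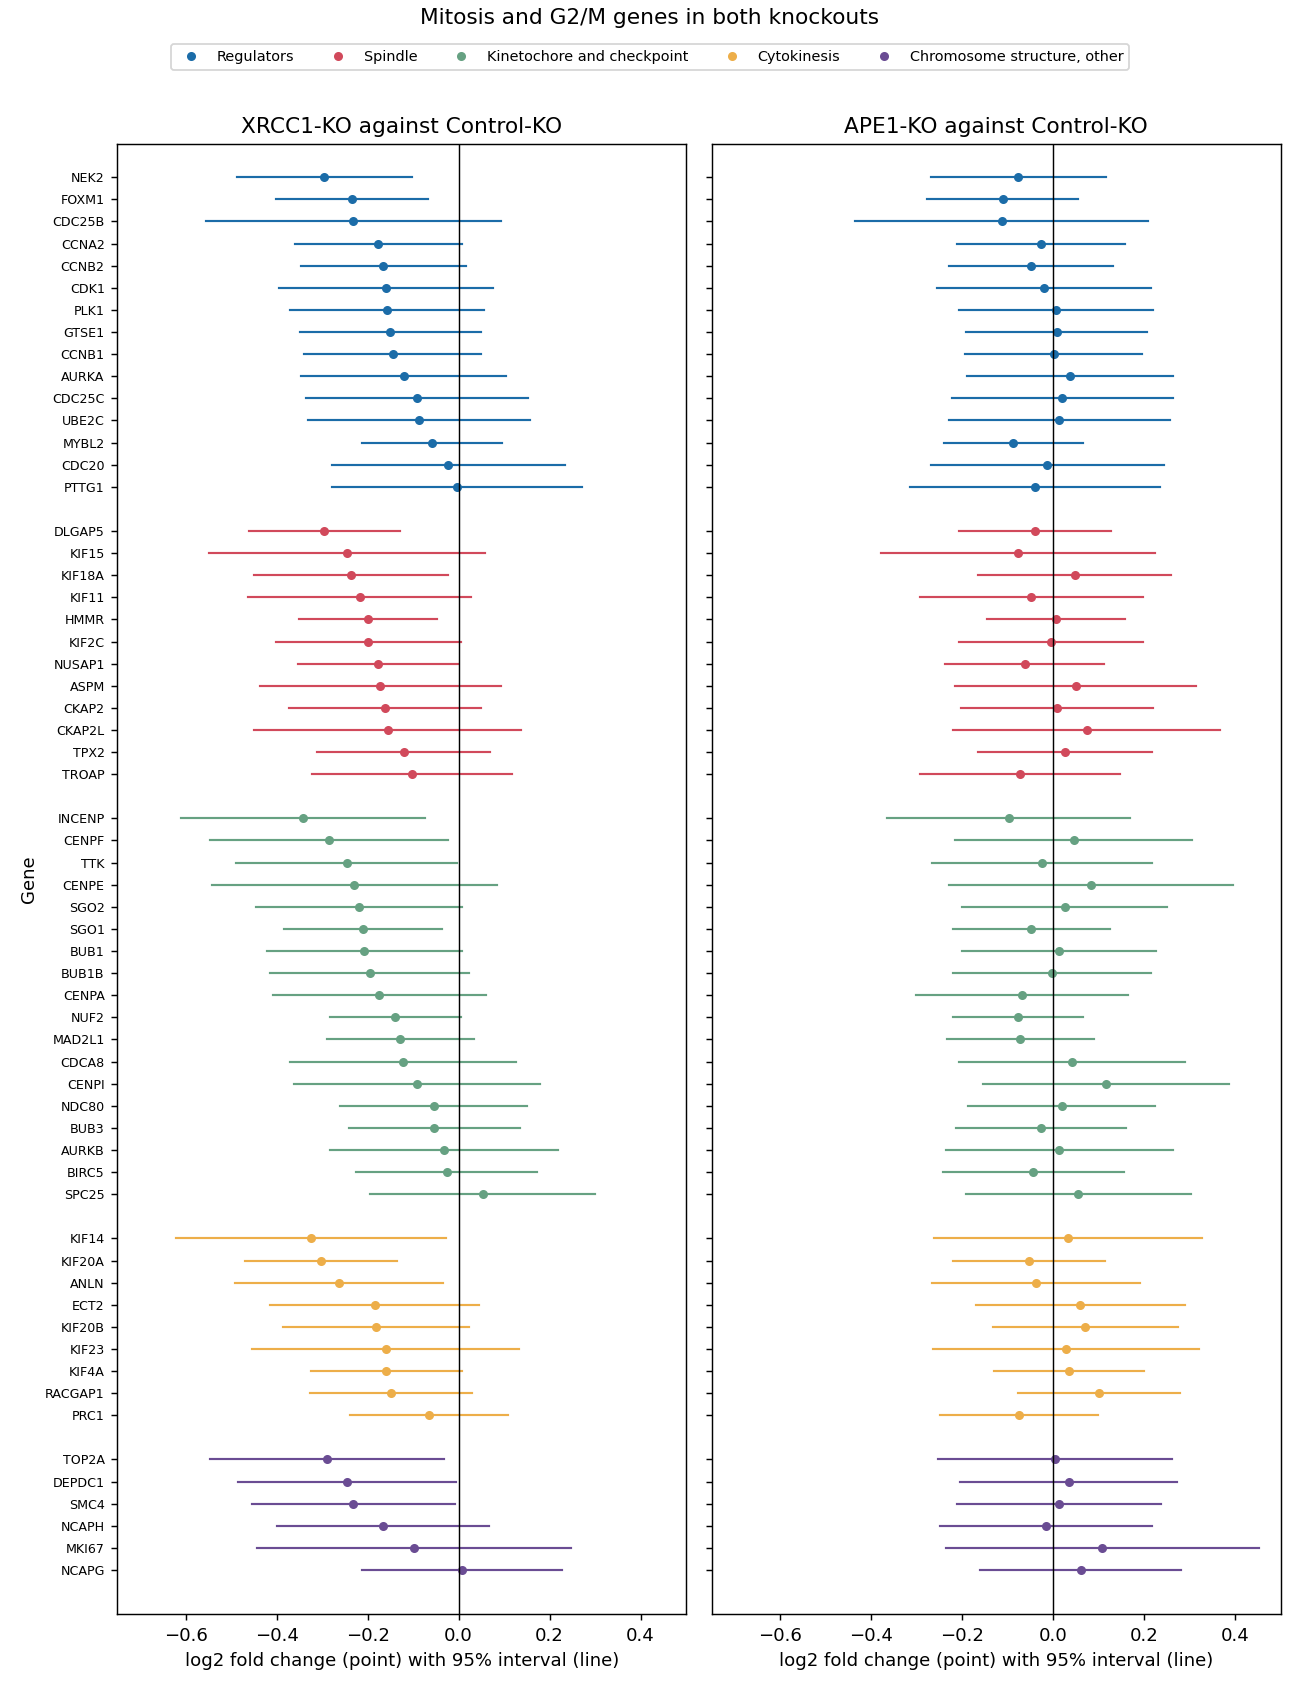
Log2 fold change of each of the 60 genes against Control-KO (points) with its 95% interval (lines), for XRCC1-KO on the left and APE1-KO on the right, grouped and coloured by role. In XRCC1-KO 58 points lie left of 0 and 16 intervals do not reach 0, while all 60 intervals in APE1-KO hold 0.

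Regulators of mitotic entry and exit were the first of 5 role groups. All 15 lay below 0 in the deposited XRCC1-KO table, with a median of -0.15 and a range from -0.30 to -0.0042, and 2 had an unadjusted p under 0.05. NEK2, a kinase that separates centrosomes (hg19 chromosome 1, 211836114 to 211848960, minus strand), stood at -0.30 in the authors' deposited table for XRCC1-KO (0.815-fold, interval -0.49 to -0.10, p = 0.00524). FOXM1, the transcription factor that activates G2/M genes (chromosome 12, 2966847 to 2986206, minus strand), stood at -0.24 in the authors' deposited table (0.85-fold, interval -0.40 to -0.07, p = 0.00906). These were the genes of the group whose intervals did not reach 0. The authors' deposited APE1-KO table gave -0.077 for NEK2 (p = 0.41) and -0.11 for FOXM1 (p = 0.179), the smallest p of any of the 60 genes in that table.

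The cyclins and their kinase lay close together. Cyclin A2 (CCNA2) stood at -0.18, cyclin B2 (CCNB2) at -0.17, cyclin B1 (CCNB1) at -0.15 and CDK1, the kinase they activate, at -0.16 in the deposited XRCC1-KO table, with p from 0.0601 for CCNA2 to 0.171 for CDK1. In APE1-KO the deposited values ran from -0.048 for CCNB2 to 0.0011 for CCNB1. The polo kinase PLK1 stood at -0.16 and the spindle kinase AURKA at -0.12 in the deposited XRCC1-KO table, both with intervals that hold 0, and GTSE1, a microtubule-binding protein, at -0.15. Of the phosphatases that switch CDK1 on, CDC25B stood at -0.23, with a wide interval from -0.56 to 0.09, and CDC25C at -0.092.

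The regulators nearest 0 were PTTG1, CDC20, MYBL2 and UBE2C. CDC20, which activates the APC/C, stood at -0.023 in the authors' deposited table for XRCC1-KO (interval -0.28 to 0.23, p = 0.852). Securin (PTTG1), the inhibitor of the protease that cuts cohesin, stood at -0.0042 in the authors' deposited table (interval -0.28 to 0.27, p = 0.974). UBE2C, the ubiquitin-conjugating enzyme of the APC/C, stood at -0.087, and the activator B-MYB (MYBL2) at -0.058. With the length and GC trend described further on removed, UBE2C stood at -0.23 and MYBL2 at -0.11. The value of NEK2 lies just outside the intervals of CDC20 and PTTG1, and inside that of UBE2C (-0.33 to 0.16). The deposited APE1-KO table gave -0.013 for CDC20, -0.039 for PTTG1, 0.014 for UBE2C and -0.088 for MYBL2.

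Spindle motors and microtubule-associated proteins had a median of -0.19 in the deposited XRCC1-KO table, and all 12 lay below 0, from -0.30 to -0.10. At an unadjusted p under 0.05, 4 were lower. DLGAP5, also called HURP, which stabilises microtubules near chromosomes (hg19 chromosome 14, 55614830 to 55658396, minus strand), stood at -0.30 in the authors' deposited table (0.815-fold, interval -0.46 to -0.13, p = 0.00178). HMMR, a receptor for hyaluronan that also focuses spindle poles, stood at -0.20 in the authors' deposited table (interval -0.35 to -0.05, p = 0.0134). KIF18A, the kinesin that limits chromosome oscillation, stood at -0.24 in the authors' deposited table (p = 0.0317), and NUSAP1, which bundles microtubules, at -0.18 (p = 0.0478). The other spindle genes had intervals that hold 0 in the deposited XRCC1-KO table.

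Among those, KIF15 stood at -0.25 and KIF11, the kinesin that pushes spindle poles apart, at -0.22 in the deposited XRCC1-KO table. The microtubule depolymerase KIF2C stood at -0.20 in the authors' deposited table (p = 0.0552), ASPM, a spindle pole protein, at -0.17, CKAP2 at -0.16 and its relative CKAP2L at -0.16. TPX2, the activator of AURKA, stood at -0.12 and TROAP at -0.10, the value nearest 0 of this group. The range of these 12 values was narrower than that of any other role group. In the deposited APE1-KO table the 12 genes had a median of 0.00075 and ran from -0.077 for KIF15 to 0.074 for CKAP2L, with 6 on each side of 0.

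Kinetochore, checkpoint and chromosomal passenger genes were spread most widely, from -0.34 to 0.053 in the deposited XRCC1-KO table, with a median of -0.16 and 17 of 18 below 0. INCENP, the scaffold of the chromosomal passenger complex, had the lowest value of all 60 genes, at -0.34 in the authors' deposited table (0.789-fold, interval -0.61 to -0.07, p = 0.016). Its partners in that complex did not stand as low: the kinase AURKB was at -0.032 (interval -0.28 to 0.22), survivin (BIRC5) at -0.026 (interval -0.23 to 0.17) and borealin (CDCA8) at -0.12. The interval of INCENP overlaps those of all of them, and differences between genes of the same libraries were not tested. With the length and GC trend described further on removed, INCENP stood at -0.35, AURKB at -0.16, BIRC5 at -0.041 and CDCA8 at -0.145. Shugoshin 1 (SGO1), which protects cohesin at centromeres, stood at -0.21 in the authors' deposited table (p = 0.0204), and SGO2 at -0.22 (p = 0.0565).

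Of the spindle checkpoint, the kinase TTK (also MPS1) stood at -0.25 in the authors' deposited table for XRCC1-KO (p = 0.0475), BUB1 at -0.21 (p = 0.0567), BUB1B (BubR1) at -0.20, MAD2L1 at -0.13 and BUB3 at -0.053. CENPF, a large protein of the outer kinetochore, stood at -0.29 in the authors' deposited table (p = 0.0349), the motor CENPE at -0.23, the centromeric histone CENPA at -0.17 and CENPI at -0.092. Of the NDC80 complex, which holds microtubules, NUF2 was at -0.14, NDC80 at -0.055 and SPC25 at 0.053, the highest of all 60 values in the authors' deposited table for XRCC1-KO (interval -0.19 to 0.30, p = 0.654). The intervals of these 3 subunits overlap, and SPC25 stood at -0.015 with the length and GC trend removed. In the deposited APE1-KO table this group had a median of 0.0053, from -0.098 for INCENP to 0.12 for CENPI, with 9 genes on each side of 0.

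Cytokinesis genes had a median of -0.18 in the deposited XRCC1-KO table, all 9 below 0, and 3 had an unadjusted p under 0.05. KIF20A (also MKLP2), which carries the passenger complex to the central spindle (hg19 chromosome 5, 137514408 to 137523404, plus strand), had the smallest p of all 60 genes and stood at -0.30 in the authors' deposited table (0.811-fold, interval -0.47 to -0.13, p = 0.00157). KIF14, which recruits citron kinase to the midbody, stood at -0.33 in the authors' deposited table (p = 0.0339), and anillin (ANLN), a scaffold of the contractile ring, at -0.26 (p = 0.0273). The exchange factor ECT2 stood at -0.18, and RACGAP1 and KIF23, which form centralspindlin, at -0.15 and -0.16. KIF20B stood at -0.18, KIF4A at -0.16 in the authors' deposited table (p = 0.0586), and PRC1, the microtubule bundler that KIF4A binds, at -0.066 (p = 0.434). The authors' deposited APE1-KO table gave this group a median of 0.032, with 6 of 9 above 0 and RACGAP1 highest at 0.10 (p = 0.241).

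Chromosome structure and proliferation genes made up the other 6. TOP2A, the topoisomerase that untangles sister chromatids and the most abundant of the 60 by mean log2 CPM (9.06), stood at -0.29 in the authors' deposited table for XRCC1-KO (p = 0.0305). The condensin ATPase SMC4 stood at -0.23 in the authors' deposited table (p = 0.0438) and DEPDC1 at -0.25 (p = 0.0454). Of its partners in condensin I, NCAPH stood at -0.17 and NCAPG at 0.008 (interval -0.21 to 0.23), the only gene besides SPC25 above 0. MKI67, which encodes the proliferation antigen Ki-67, stood at -0.099 with an interval from -0.44 to 0.25, which holds both 0 and the value of KIF20A. In the deposited APE1-KO table these 6 genes had a median of 0.024, from -0.016 for NCAPH to 0.11 for MKI67.

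The 5 role groups had medians between -0.20 (chromosome structure and proliferation) and -0.15 (regulators) in XRCC1-KO. No test of 1 role group against another was made. The share with an unadjusted p under 0.05 ran from 2 of 15 regulators to 3 of 6 chromosome genes, and with the length and GC trend removed from 0 of 6 chromosome genes to 4 of 18 kinetochore genes, with 3 of 15 regulators, 2 of 12 spindle and 1 of 9 cytokinesis genes. Spearman's rho between the XRCC1-KO log2 fold change and mean log2 CPM over the 60 genes, which share their libraries, was -0.0966, so abundance went little with the order. Per kilobase of transcript, a scale on which levels of genes can be compared, the 60 ran from a mean log2 CPM of 3.01 for KIF15 to 7.09 for CDC20.

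Transcript length went with the order among these genes, as it did over all genes. Over the 60, Spearman's rho between the XRCC1-KO log2 fold change and transcript length (GENCODE release 29, longest coding transcript) was -0.426, and -0.457 over 11175 nuclear genes of the same libraries. With the 60 in 3 equal sets by length, the 20 shortest (914 to 2711 bases) had a median of -0.12 with 3 at an unadjusted p under 0.05. The 20 of middle length (2771 to 3964 bases) had a median of -0.20 with 7, and the 20 longest (4087 to 12678 bases) a median of -0.20 with 6. Genes near 0 had both short and long annotated transcripts. Those of PTTG1, CDC20, AURKB and SPC25 are listed at 1070, 1777, 1254 and 1354 bases, and those of NCAPG and BUB3 at 4661 and 7828 bases. Which form of each transcript these cells express was not determined, here or in the values per kilobase.

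Over all genes the XRCC1-KO fold change dropped with length, from a median of 0.154 in the shortest of 20 bins (median length 935 bases) to -0.0901 in the longest (11357 bases). With a smooth trend on length and GC content removed, the median of the 60 went from -0.17 to -0.15. Again 58 of 60 lay below 0, beside 50.1% of all genes, but BUB3 (0.052) now lay above it with NCAPG, and SPC25 below. The trend alone gave a median of -0.036 at the lengths and GC contents of these genes. In the same step 10 of the 60 were lower at an unadjusted p under 0.05, beside 1.55% of all genes, and 7 of those 10 were among the 16 named above: KIF20A, NEK2, DLGAP5, FOXM1, INCENP, SGO1 and HMMR. CENPA, NUF2 and PLK1 joined them, at -0.25, -0.15 and -0.22 after removal. The order of the role groups turned in this step: regulators, whose transcripts are shortest (median 2227 bases), went from -0.15 to -0.16, chromosome genes (5401 bases) from -0.20 to -0.14 and cytokinesis genes (4348 bases) from -0.18 to -0.11. The short transcripts AURKB and UBE2C moved from -0.032 to -0.16 and from -0.087 to -0.23, and PTTG1 from -0.0042 to -0.13. The 3 length sets then had medians of -0.15, -0.16 and -0.11.

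**Figure D2:**
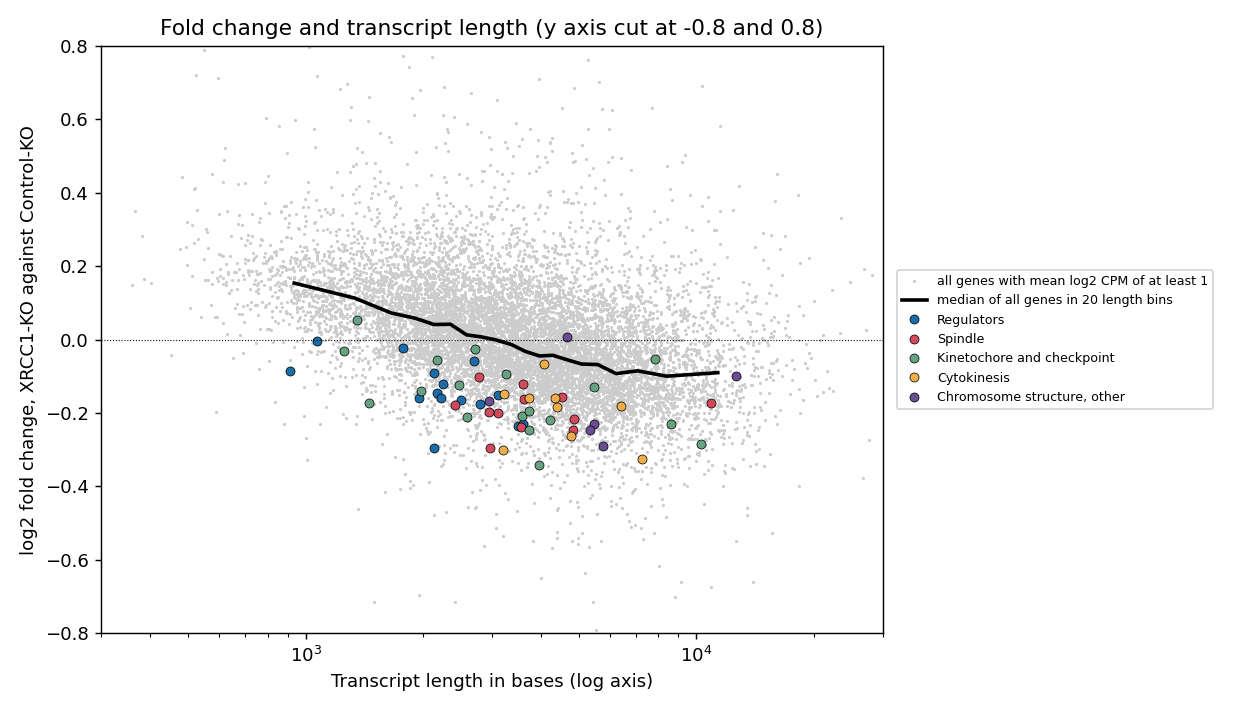
Log2 fold change in XRCC1-KO against transcript length in bases (log axis), with all genes at or above a mean log2 CPM of 1 in grey, their median in 20 length bins as a black line, and the 60 genes as points coloured by role. Genes beyond 0.8 on either side of 0 are not drawn. Most coloured points lie under the black line at all lengths, and 58 of 60 lie under the trend on length and GC content.

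Many of the genes also share promoter motifs, which the choice by name did not use. RefSeq windows from 250 bases before to 50 bases after the start site (GRCh38.p14) were matched for 51 of the 60, and not for UBE2C, FOXM1, TTK, BUB3, AURKA, RACGAP1, TPX2, TROAP and BIRC5. The CHR core TTTGAA, read on both strands, was in 34 of these 51 promoters (66.7%), in 9.68% of 10259 promoters of measured genes and in 15.4% of 27305 promoters in all. The related TTCGAA, also on both strands, was in 3 of the 51 (5.88%), against 1.71% of measured genes. The NF-Y box CCAAT, on both strands, was in 37 (72.5%, against 36.6%), at least 2 copies in 21 (41.2%, against 13.6%), and both this box and the CHR core in 27 (52.9%, against 4.05%). Copies were counted on each strand, so an overlapping pair such as the one in HMMR counted as 2. By role, TTTGAA was in 7 of 8 cytokinesis promoters, 8 of 10 spindle, 5 of 6 chromosome, 9 of 15 kinetochore and 5 of 12 regulator promoters.

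Medians in XRCC1-KO lay close together in genes with and without TTTGAA in the matched window. The split used only those letters in a single window per gene. Genes without a match may therefore carry the element elsewhere or in another form. The 34 genes with it had a median of -0.17 in the deposited XRCC1-KO table, with 11 lower at an unadjusted p under 0.05, and the 17 without it a median of -0.18 with 3. Their medians in the deposited APE1-KO table were 0.0071 and -0.0045. The promoters below are shown for comparison by eye, from the genes of smallest p with the element (DLGAP5, HMMR) and without it (KIF20A, NEK2), and SPC25, the gene with the highest value, which carries it too. Each is printed on the gene's own strand, 5′ to 3′, with the CHR core, its variant, the NF-Y box and the reverse complement of each in capitals. The windows are chr14:55191536-55191835 (minus), chr5:163460382-163460681 (plus), chr5:138178862-138179161 (plus), chr1:211675572-211675871 (minus) and chr2:168890381-168890680 (minus), in that order.
DLGAP5: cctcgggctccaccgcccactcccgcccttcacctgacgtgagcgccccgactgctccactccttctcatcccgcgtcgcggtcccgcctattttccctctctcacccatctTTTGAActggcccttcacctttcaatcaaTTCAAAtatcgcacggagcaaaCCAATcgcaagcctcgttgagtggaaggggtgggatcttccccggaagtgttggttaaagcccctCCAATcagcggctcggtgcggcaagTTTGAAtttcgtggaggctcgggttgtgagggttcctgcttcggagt
HMMR: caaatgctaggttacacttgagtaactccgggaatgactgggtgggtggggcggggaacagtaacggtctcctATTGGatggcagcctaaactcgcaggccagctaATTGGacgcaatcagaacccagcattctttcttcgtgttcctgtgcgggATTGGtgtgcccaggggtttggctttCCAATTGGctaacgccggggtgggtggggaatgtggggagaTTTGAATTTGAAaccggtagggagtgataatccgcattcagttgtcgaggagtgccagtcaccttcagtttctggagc
KIF20A: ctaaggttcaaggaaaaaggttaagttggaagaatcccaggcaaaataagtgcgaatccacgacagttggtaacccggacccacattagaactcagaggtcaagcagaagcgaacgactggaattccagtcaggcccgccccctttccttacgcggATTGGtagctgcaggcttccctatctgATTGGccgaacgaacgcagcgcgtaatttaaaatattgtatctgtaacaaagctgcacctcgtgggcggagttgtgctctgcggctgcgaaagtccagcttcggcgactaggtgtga
NEK2: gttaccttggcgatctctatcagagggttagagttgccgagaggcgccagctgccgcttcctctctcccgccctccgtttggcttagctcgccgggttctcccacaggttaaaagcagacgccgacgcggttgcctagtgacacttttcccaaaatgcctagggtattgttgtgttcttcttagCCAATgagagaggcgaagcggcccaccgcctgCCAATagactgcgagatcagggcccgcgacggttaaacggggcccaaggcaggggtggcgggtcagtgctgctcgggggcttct
SPC25: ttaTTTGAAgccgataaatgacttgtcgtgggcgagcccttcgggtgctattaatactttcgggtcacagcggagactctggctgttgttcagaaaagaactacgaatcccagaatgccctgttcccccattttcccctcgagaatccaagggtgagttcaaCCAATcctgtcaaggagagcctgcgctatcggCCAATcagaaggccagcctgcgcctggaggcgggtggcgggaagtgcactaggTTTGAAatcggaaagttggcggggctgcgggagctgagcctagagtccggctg
In DLGAP5 a copy starts 4 bases into the transcript and others lie at -138 and, reversed, at -109, with CCAAT at -87 and -22. HMMR has adjoining copies at -28 and -22 and 5 CCAAT boxes between -177 and -66. KIF20A has reversed CCAAT boxes at -94 and -67, and NEK2 has CCAAT at -66 and -34. SPC25 has TTTGAA at -247 and -3, with CCAAT at -88 and -56. Positions count from the start site, and a match of letters is not a measured binding site.

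XRCC1-KO and APE1-KO cells were then compared with each other, through the difference of their deposited log2 fold changes, in which the control libraries cancel. The 60 genes had a median difference of -0.17 (XRCC1-KO minus APE1-KO) in values derived from the authors' tables, and 56 of them lay below 0, beside 48.4% of all genes. With a standard error that leaves out the covariance of the comparisons, and is therefore too large, 2 of 60 were lower and 0 higher at an unadjusted p under 0.05, beside 0.268% and 0.467% of all genes. These were DLGAP5, at -0.26 with a p of 0.0351, and KIF20A, at -0.25 with a p of 0.0409, and the smallest adjusted p of any member was 1.00 by the Benjamini-Hochberg method. With the standard error of a balanced design of 3 groups, 16 of 60 were lower and 0 higher at an unadjusted p under 0.05, beside 2.71% of all genes lower and 2.78% higher, and the smallest adjusted p was 0.73. In both forms 1 gene of all (0.00766%), APEX1, passed an adjusted p of 0.05. Without covariance, none of the 60 was lower at 0.01, where 0.00766% of all genes were, nor with the length and GC trend removed, where 0.0546% were.

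Cytokinesis genes made up 6 of those 16: KIF20A, RACGAP1, KIF20B, KIF14, KIF4A and ECT2. With the length and GC trend removed, the median difference of cytokinesis genes went from -0.24 to -0.13, and that of regulators from -0.125 to -0.15. The count with the balanced standard error was not made with the trend removed. KIF14 had the largest difference of the 60, at -0.36 (balanced interval -0.65 to -0.06, with a p of 0.0211), from -0.33 in XRCC1-KO and 0.032 in APE1-KO. RACGAP1 stood at -0.25, with a p of 0.00881, from -0.15 and 0.10. The other genes of the 16 were DLGAP5, HMMR and KIF18A of the spindle, and CENPF, SGO2 and BUB1 of the kinetochore. From the chromosome structure and proliferation group came TOP2A, SMC4 and DEPDC1, and from the regulators NEK2. FOXM1, at -0.24 and -0.11, differed by -0.13, with a p of 0.131. MYBL2, BIRC5, PRC1 and PTTG1 had differences just above 0, from 0.0098 for PRC1 to 0.035 for PTTG1. With the length and GC trend removed, MYBL2, BIRC5 and PTTG1 lay below 0, and PRC1 stayed above it.

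**Figure D3:**
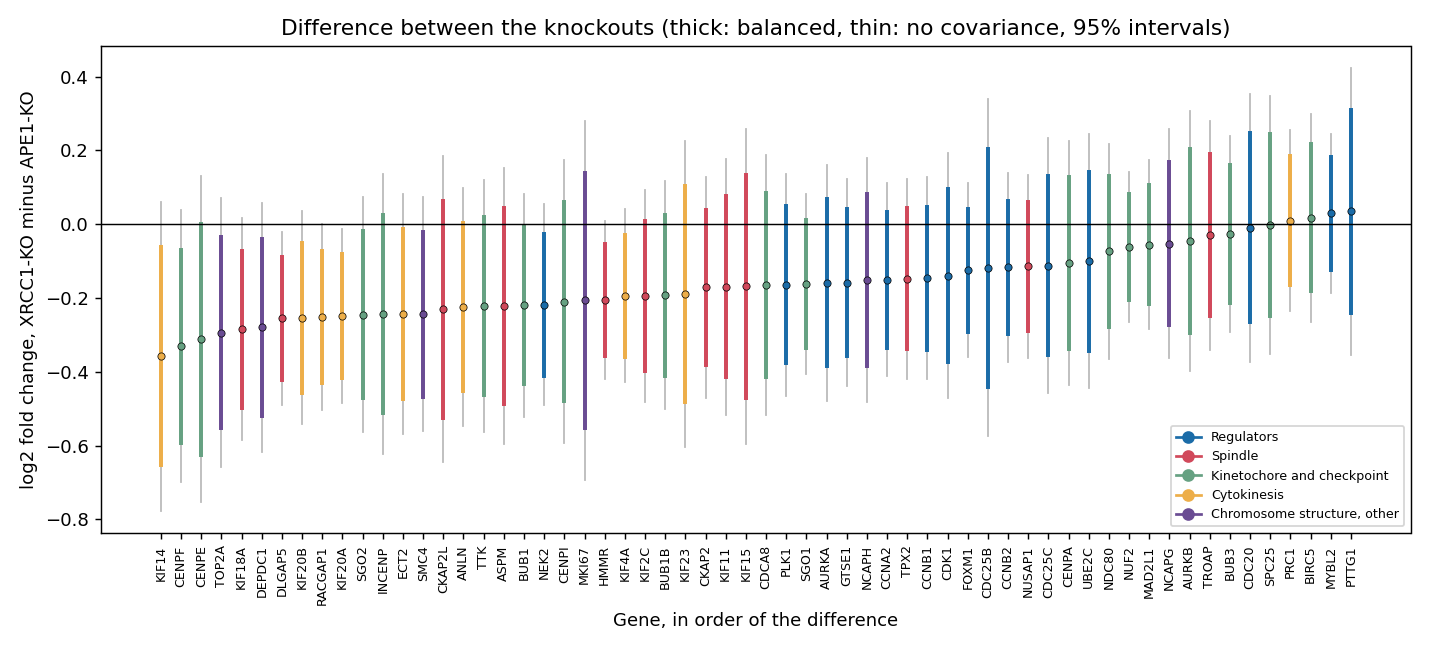
Difference of the log2 fold changes, XRCC1-KO minus APE1-KO, of each gene in order of size, with 95% intervals from the balanced standard error (thick) and from the standard error without covariance (thin), coloured by role. The points run from -0.36 for KIF14 to 0.035 for PTTG1, and 56 of 60 lie below 0.

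Other genes of the same machinery, in 7 lists chosen by name with none of the 60 in them, stood nearer to 0. These lists and the 60 were chosen with earlier results of these data known, so the contrast may partly reflect that choice. Over these 135 genes the median was -0.066 in the deposited XRCC1-KO table, and 92 lay below 0, beside 50.3% of all genes. At an unadjusted p under 0.05, 8 were lower and 2 higher, beside 2.7% and 3.26% of all genes. With the length and GC trend removed their median was -0.056, and 1 was lower, beside 1.55% of all genes. That 1 was among the other spindle genes, where 0 were lower before removal, so none of the 8 remained. The cohesin and other condensin genes had a median of -0.16, with 16 of 17 below 0. In the authors' deposited table the cohesin subunits STAG2 (-0.30, p = 0.0108) and RAD21 (-0.25, p = 0.0204) and the condensin ATPase SMC2, the partner of SMC4 (-0.32, p = 0.0171), were lower at an unadjusted p under 0.05. This list has long transcripts, with a median of 5992 bases, and after removal of the length and GC trend its median was -0.089 and 0 of the 17 were lower at that threshold.

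Genes of the DREAM complex, MuvB core and NF-Y had a median of -0.13 in the deposited XRCC1-KO table. Of the 14, 12 lay below 0, beside 50.3% of all genes. LIN9, a MuvB subunit, stood at -0.31 in the authors' deposited table (p = 0.0258). In the authors' deposited table for APE1-KO NFYC, a subunit of NF-Y, stood at 0.30 (p = 0.00502, adjusted p = 1) and at 0.10 in XRCC1-KO. Mitotic entry control had a median of -0.11, with PLK4, the kinase of centriole duplication, at -0.23 in the authors' deposited table (p = 0.0278) and WEE1, the kinase that holds CDK1 inactive, at -0.22 (p = 0.0399). With the trend removed the DREAM, MuvB and NF-Y list had a median of -0.092 and mitotic entry control one of -0.044, and neither had a gene lower at an unadjusted p under 0.05. Other spindle genes had a median of -0.072, with 22 of 28 below 0.

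Subunits of the APC/C and its regulators had a median of 0.03 in the deposited XRCC1-KO table, with 6 of 17 below 0, beside 50.3% of all genes, and a median of 0.016 with the trend removed. ANAPC11, the catalytic RING subunit, stood at 0.29 in the authors' deposited table (p = 0.0494) and at 0.17 with the trend removed, where the list had 0 genes higher at an unadjusted p under 0.05. Other kinetochore genes had a median of -0.026 over 33, with ZWILCH, a subunit of a checkpoint complex, at -0.18 in the authors' deposited table (p = 0.0407). After removal of the trend the kinetochore list had a median of -0.042 and 0 genes lower at an unadjusted p under 0.05. Other cytokinesis genes had a median of -0.018 over 13, which turned to 0.044 with the trend removed, with citron kinase (CIT), the partner of KIF14, at -0.20 in the authors' deposited table (p = 0.0555). DNA replication and G1/S genes, the neighbouring phase, had a median of 0.014 over 29, with 12 below 0, in the authors' deposited table for XRCC1-KO, with ORC1, a subunit of the origin recognition complex, at -0.20 (p = 0.0183). Their median in the deposited APE1-KO table was -0.018.

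HAUS5, a subunit of the augmin complex that branches spindle microtubules, was the gene of these lists with an unadjusted p under 0.05 in both comparisons, on opposite sides of 0. It stood at 0.25 in the authors' deposited table for XRCC1-KO (p = 0.0254) and at -0.26 in the deposited APE1-KO table (p = 0.0231). The difference was 0.51, with a p of 0.00292 without covariance and 0.000151 with the balanced standard error. The adjusted p was 0.73 in the latter form.

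**Figure D4:**
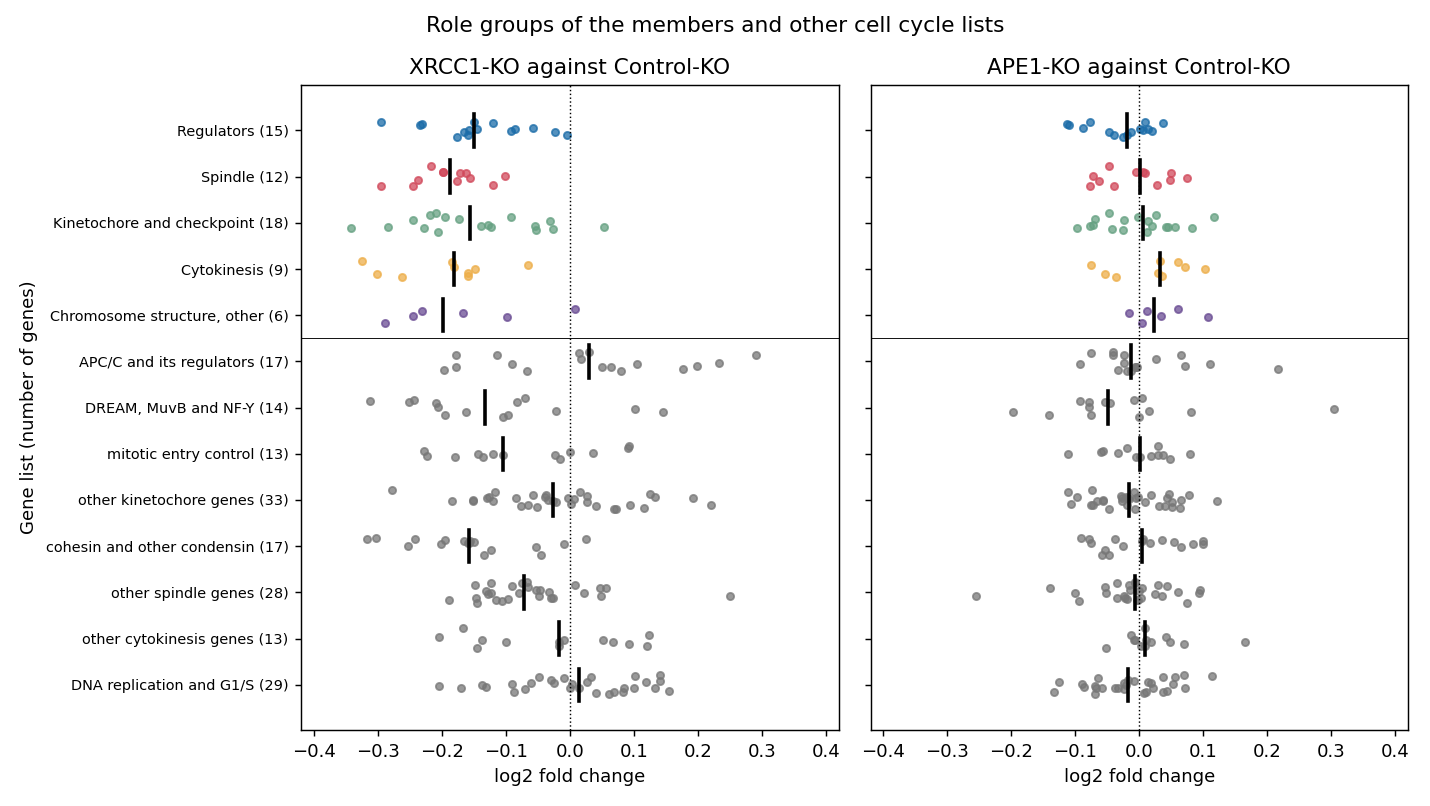
Log2 fold change of every gene (points) against Control-KO in XRCC1-KO (left) and APE1-KO (right), by role group of the 60 genes (coloured, above the line) and by list of other cell cycle genes (grey, below it), with black bars for medians and the number of genes in parentheses. In XRCC1-KO the medians of the coloured groups lie between -0.20 and -0.15, those of the grey lists between -0.16 and 0.03, and in APE1-KO all medians lie between -0.049 and 0.032.

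Among genes upstream, CDKN1A, which encodes p21, an inhibitor of cyclin-dependent kinases, stood at 0.69 in the authors' deposited table for XRCC1-KO (1.61-fold, p = 1.89e-05, adjusted p = 0.123) and at 0.38 in the deposited APE1-KO table (adjusted p = 1 and unadjusted p = 0.00453). The difference between the knockouts was 0.31, with a p of 0.0674 without covariance. The median of the 60 mitotic genes was 0.0053 in the knockout with the smaller CDKN1A value. Whether CDKN1A has a part in the mitotic values was not tested.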

How the data were processed

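Poly(A) RNA of 9 MCF10A libraries, 3 per group, was sequenced with a kit that keeps strand, per the labels. The submitters' processing notes name edgeR, Salmon 1.4.0, Trim Galore and the build hg19, without saying how each was run. The authors deposited 2 tables of comparisons with 13052 genes each. Per the file headers, each holds hg19 coordinates, log2 fold changes, mean log2 CPM, an F score without unit, the p-value, its −log10 and an adjusted p. How genes were filtered and counts normalised, and with which model, is not given in the sources used here. Without values per library there is no replicate SD, and depth is unknown. The low limit of mean log2 CPM in the deposited tables was -2.66. All 60 genes lie at 4.42 or above.

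A standard error was recovered per gene as the absolute log2 fold change over the root of F. For F under 0.01, that of the other comparison was taken. Denominator degrees of freedom were solved from F and p (median 15.2, also used for F under 3). Intervals at 95% use quantiles with those degrees of freedom. In 97.4% of 10832 genes the standard errors of both comparisons agreed to 5%. The difference between knockouts was tested over all 13052 genes, with Benjamini-Hochberg adjustment. These steps and the removal of the trend (robust cubic regression of log2 fold change on log2 transcript length and GC content, with values for 98.4% of genes) were tested on simulated data. Python 3.11.15, scipy 1.17.1 and statsmodels 0.14.6 were used.

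The genes, role groups and lists were chosen with earlier results of these data known. The naming rule lets every member be named, gives intervals and p-values for those under an unadjusted p of 0.05 and for the extremes of each role group, and of other lists takes up to 4 genes under 0.05 by smallest p, else the smallest p. A few further members are given with a p or an interval, chosen after their values were seen. Some genes that the rule takes are not reported here. Alternatives were only genes at or above a mean log2 CPM of 1, centring on the median, removal of the trend, a threshold of 0.01 and the balanced standard error.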

Additional observations from a re-analysis of the deposited data

How the results depend on the processing

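The XRCC1-KO median of the 60 genes (-0.17), the 58 below 0 and the 0 past an adjusted p of 0.05 held their direction and side under all alternatives run for them: only genes at or above a mean log2 CPM of 1, centring, and removal of the length and GC trend. The count of 16 lower at an unadjusted p under 0.05 went to 10 with the trend removed and to 4 at a threshold of 0.01. For XRCC1-KO minus APE1-KO the count of 2 went to 16 with the balanced standard error, to 0 with the trend removed and to 0 at the threshold of 0.01. With the trend removed, some of the 31 members followed by name crossed 0. These were HMMR (-0.00036), SMC4 (-0.0074) and TOP2A (-0.015) in APE1-KO and SPC25 (-0.015) in XRCC1-KO. In the difference they were BIRC5 (-0.0082), NCAPG (0.044) and PTTG1 (-0.078). Members outside those 31 that crossed 0 included BUB3 in XRCC1-KO (-0.053 to 0.052), UBE2C, ASPM, CDC20 and KIF2C in APE1-KO, and MYBL2 in the difference. No paired analysis was possible because the tables give comparisons and no values per library. For the same reason no replicate was left out, and depth could not be set against the values.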
